A study of Mus musculus with 24 samples.

Results

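10 genes of the circadian clock were followed through 8 groups of mouse lungs: Arntl, Clock, Npas2, Per1, Per2, Per3, Nr1d1, Nr1d2, Dbp and Bhlhe40. Each was read at the probe set annotated to that symbol and no other, and where a gene had several such probe sets, at the brightest of them, averaged over the 24 arrays. They are 10 of 12393 genes on the arrays, and all 10 symbols were found. 3 of them (Arntl, Clock, Npas2) are the activator arm, and the other 7 are counted here as the repressor arm, with Dbp read as an output that the activators drive. The lungs came from 24 female mice of the inbred strain BALB/C, aged 8 to 10 weeks, with 3 separate mice and 3 arrays in each group. Mice received saline, 20 ug of ovalbumin (OVA, an egg protein used as a model allergen), 150 ug of 1 of 3 diesel exhaust particle samples (NDEP, ADEP or CDEP), or 1 of these particles together with OVA. All doses went into the nose on days 0 and 13, and the lungs were taken 18 hours after the second dose and frozen. The group that received saline and OVA is called OVA here. The time of day of dosing and of tissue collection is not given in the sources used here, and its part in the results below was not tested.

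The mammalian clock is a feedback loop of transcription. BMAL1, the product of Arntl, pairs with CLOCK or with its relative NPAS2 and binds E-boxes to switch on the Per and Cry genes, Nr1d1, Nr1d2, Dbp and Bhlhe40. PER proteins then block the activator pair, BHLHE40 competes for the same E-boxes, and the nuclear receptors REV-ERB alpha and beta, encoded by Nr1d1 and Nr1d2, silence Arntl through ROR elements. In the lung the loop runs in epithelial cells, including club cells, and in macrophages, and it is known to gate the recruitment of neutrophils.

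The start regions of 4 of these genes are shown because they hold a match to a motif, or to part of a motif, that clock factors are known to bind. RefSeq windows of 250 bases before to 50 after an annotated start (build GRCm38.p6) covered 8 of the 10 genes in 12 windows, and Per2 and Bhlhe40 had no entry. Both strands were searched for the E-box CACGTG, the D-box TTATGTAA or TTACGTAA that DBP binds, and the ROR motif AGGTCA, and matches stand in capitals. The share of all 32851 windows with a match was 7.15% for the E-box, 1.06% for the D-box and 16.3% for the ROR motif. Of the 12 windows of clock genes, 1 held the E-box, 1 the D-box and 4 the ROR motif, counts that are too small to set against these shares. In order, the windows lie at chr7:113207261-113207560 on the plus strand for Arntl, chr14:18239057-18239356 on the minus strand for Nr1d2, chr11:69098699-69098998 on the plus strand for Per1, and chr4:151044616-151044915 on the minus strand for Per3.
Arntl: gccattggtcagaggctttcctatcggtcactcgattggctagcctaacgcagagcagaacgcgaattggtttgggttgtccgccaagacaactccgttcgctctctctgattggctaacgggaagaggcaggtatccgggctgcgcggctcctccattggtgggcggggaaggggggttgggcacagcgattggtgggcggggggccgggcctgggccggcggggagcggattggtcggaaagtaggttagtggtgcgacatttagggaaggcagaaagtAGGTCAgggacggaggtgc
Nr1d2: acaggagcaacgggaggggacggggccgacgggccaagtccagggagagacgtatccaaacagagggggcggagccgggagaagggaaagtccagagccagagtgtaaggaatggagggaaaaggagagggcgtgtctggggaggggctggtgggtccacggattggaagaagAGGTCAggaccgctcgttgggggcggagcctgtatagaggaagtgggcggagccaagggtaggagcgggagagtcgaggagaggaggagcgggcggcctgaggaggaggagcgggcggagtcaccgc
Per1: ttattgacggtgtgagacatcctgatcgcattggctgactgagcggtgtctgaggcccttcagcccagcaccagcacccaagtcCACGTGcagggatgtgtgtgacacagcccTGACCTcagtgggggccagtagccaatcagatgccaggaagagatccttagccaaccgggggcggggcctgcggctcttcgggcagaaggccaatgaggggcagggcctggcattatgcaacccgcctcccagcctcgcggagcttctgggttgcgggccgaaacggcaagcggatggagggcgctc
Per3: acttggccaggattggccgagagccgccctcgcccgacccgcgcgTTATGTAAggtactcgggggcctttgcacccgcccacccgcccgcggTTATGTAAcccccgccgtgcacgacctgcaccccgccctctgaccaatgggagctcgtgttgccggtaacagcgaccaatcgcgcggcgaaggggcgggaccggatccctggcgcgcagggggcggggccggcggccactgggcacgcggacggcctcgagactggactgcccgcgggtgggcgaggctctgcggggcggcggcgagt
The Arntl and Nr1d2 windows shown each held the ROR motif as written. The Per1 window shown held an E-box and the ROR motif on the opposite strand, printed as TGACCT. The Per3 window was the only one of the 12 with a D-box and had 2 of them. Arntl and Per1 each had a second window, not shown, with no match. 1 of the 3 windows of Clock, not shown, also held TGACCT, and those of Npas2, Nr1d1 and Dbp held none of the motifs. A match describes these letters and was not tested as a binding site.

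Levels are given as log2 of the deposited intensity, where 1 unit is a 2-fold difference, in the order of replicates 1, 2 and 3. A gene is called higher or lower where limma's moderated test across all 12393 genes gave a Benjamini-Hochberg adjusted p under 0.05. Fold changes are followed by their standard error (SE). Arrays of 2 groups that do not overlap are described as such. The share of all genes without overlap was not counted. No clock gene was dim in any group, where dim means that the group mean fell short of the 25th percentile on all 3 arrays. Npas2 came nearest, at the 29.8th percentile on average. The lung label held on its markers, since all 7 epithelial markers measured were above that bound in every group, while of 4 brain genes Snap25 and Syt1 were below it in every group and Gfap and Mbp were not. In whole lung, fewer cells of a type and less RNA per cell cannot be told apart.

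**Figure D1:**
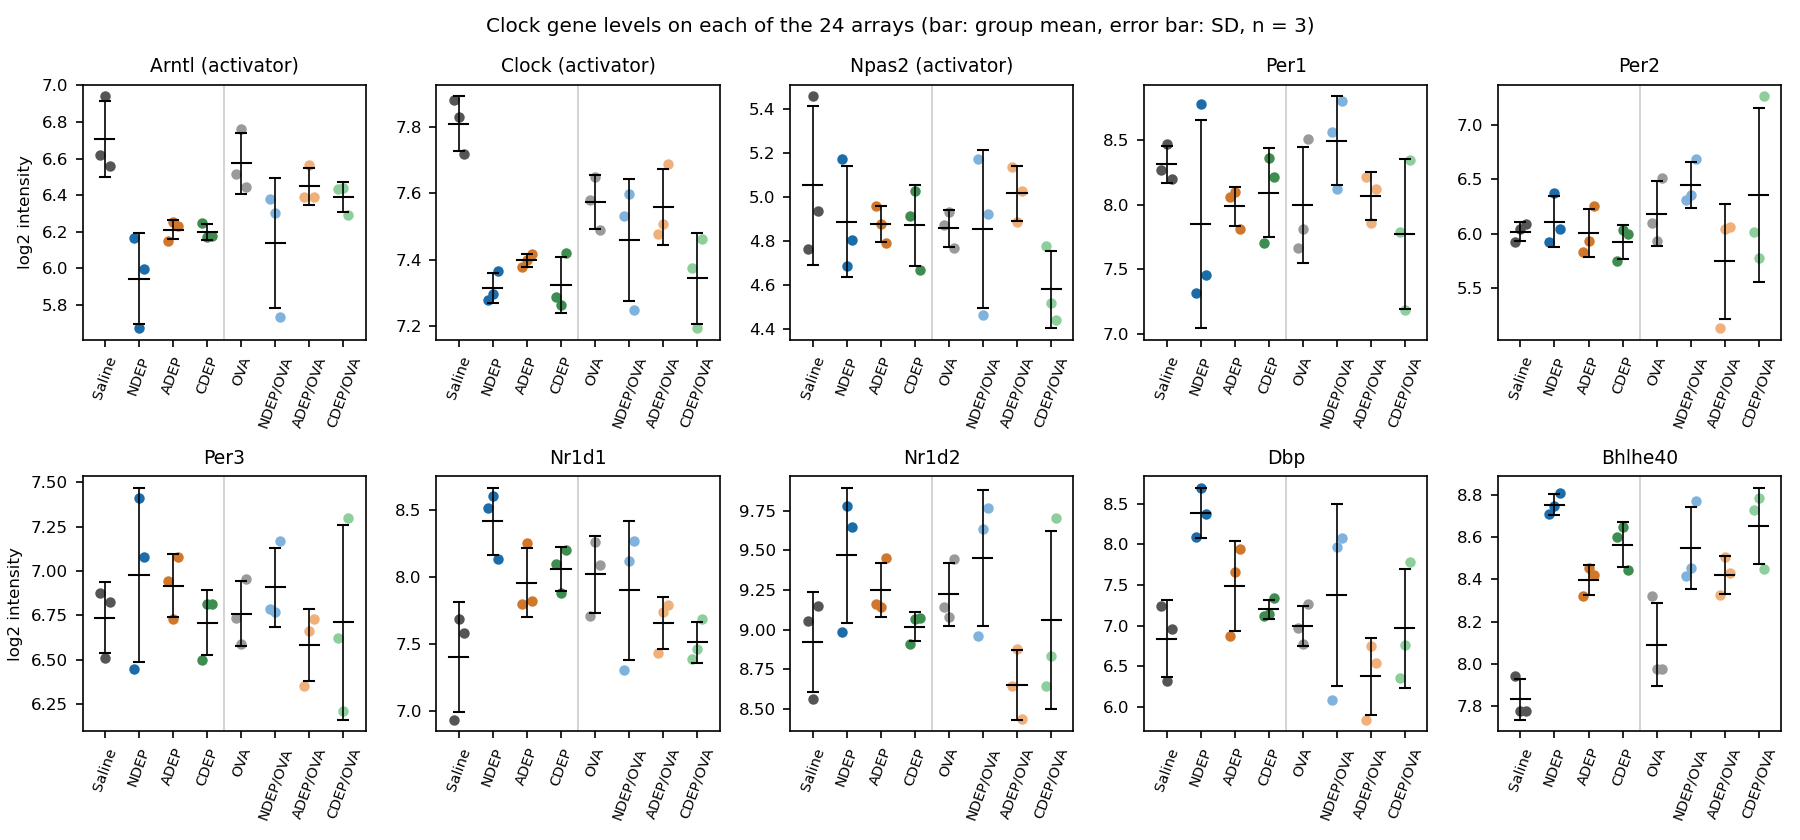
Log2 intensity of the 10 clock genes on each of the 24 arrays, 1 panel per gene, with saline and particles alone left of the grey line and the groups with OVA right of it. Points are arrays, long bars group means and error bars SD (n = 3). Clock and Bhlhe40 show saline arrays that lie apart from every particle array, while Per2 and Per3 overlap throughout the left side.

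Bhlhe40 rose with each particle given alone, and Clock fell with each at 1 of its 2 probe sets, while Npas2, the other partner in the activator arm, passed with none. With NDEP 5 of the 10 clock genes changed, against 2.70% of all genes tested: Arntl and Clock fell, and Nr1d1, Dbp and Bhlhe40 rose. With ADEP 2 of the 10 changed against 1.65% of all genes, and with CDEP 3 of the 10 against 4.04%. Clock fell and Bhlhe40 rose in each of these comparisons, and Arntl also fell with CDEP. All 3 comparisons use the same saline arrays, so they are not independent of each other.

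Arntl read 6.62, 6.94 and 6.56 in the saline lungs. With NDEP it read 6.16, 5.67 and 5.99, with ADEP 6.15, 6.25 and 6.23, and with CDEP 6.25, 6.17 and 6.18. Every particle array thus lay below every saline array. The log2 fold change was -0.76 ± 0.14 for NDEP (adjusted p = 0.00303), a 1.70-fold drop. For CDEP it was -0.51 ± 0.14 (adjusted p = 0.0435). For ADEP the value was -0.49 ± 0.14, nearly the same, but the adjusted p of 0.0727 missed the threshold. The call for NDEP held whichever single array of the comparison was left out. That for CDEP was lost without any 1 of its 6 arrays, with adjusted p between 0.0506 and 0.131 and log2 fold changes between -0.58 and -0.39.

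Clock, whose protein is the partner of BMAL1, read 7.88, 7.83 and 7.72 with saline. It read 7.28, 7.30 and 7.36 with NDEP, 7.38, 7.40 and 7.42 with ADEP, and 7.29, 7.26 and 7.42 with CDEP. No particle array reached the lowest saline array, and the 3 particle groups lay close together. The log2 fold changes were -0.50 ± 0.10 for NDEP (adjusted p = 0.00454), -0.41 ± 0.10 for ADEP (adjusted p = 0.0282) and -0.49 ± 0.10 for CDEP (adjusted p = 0.00661). A second probe set of Clock did not show this drop. There the saline arrays ran from 7.11 to 7.54 and the NDEP arrays from 7.02 to 7.34, and the log2 fold changes were -0.11 ± 0.14 for NDEP (adjusted p = 0.791), -0.06 ± 0.14 for ADEP (adjusted p = 0.904) and -0.17 ± 0.14 for CDEP (adjusted p = 0.537). Which transcripts each probe set detects was not tested, so the fall of Clock holds for 1 of its 2 probe sets. The ADEP call was also lost without 5 of its 6 arrays in turn, the exception being the saline replicate 3, with adjusted p between 0.0517 and 0.136 and log2 fold changes between -0.42 and -0.38.

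Npas2, which can stand in for Clock, did not pass the test. Its saline arrays read 4.77, 5.46 and 4.94, and the 9 arrays of particles alone lay between 4.67 and 5.17. The groups overlapped, and the log2 fold changes were -0.16, -0.18 and -0.18 for NDEP, ADEP and CDEP, each with an SE of 0.17.

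**Figure D2:**
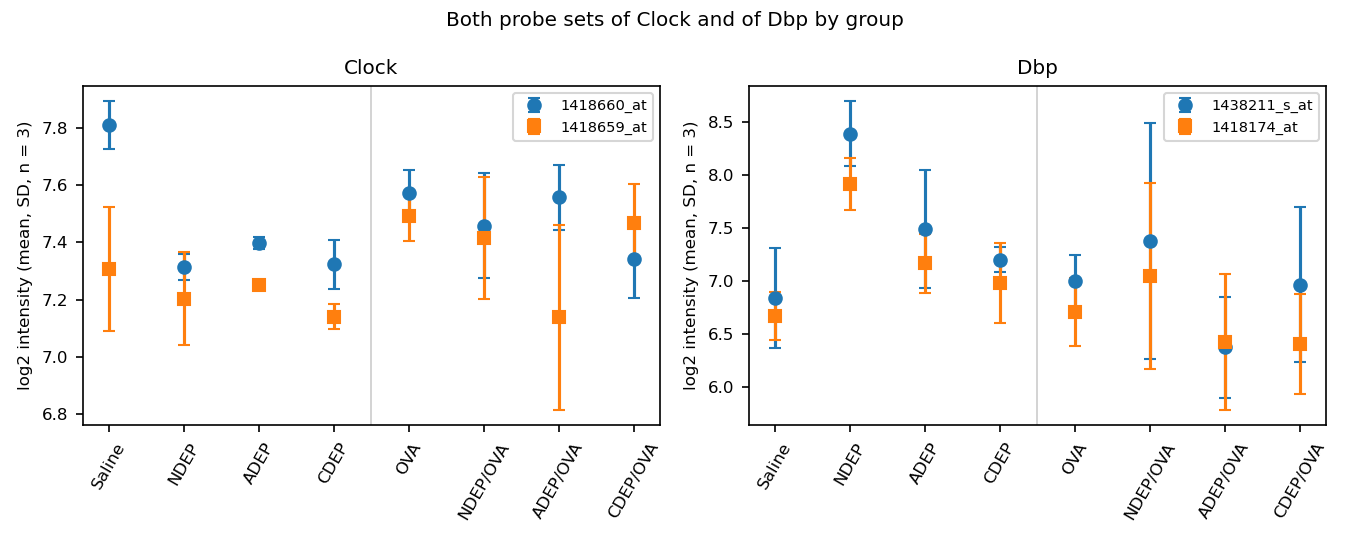
Group means of log2 intensity at both probe sets of Clock and of Dbp, with SD (n = 3). For Clock the probe set used (circles) falls from 7.81 with saline to 7.31 with NDEP while the other (squares) goes from 7.31 to 7.20, and for Dbp both probe sets are highest with NDEP.

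Bhlhe40, also known as DEC1, a repressor at E-boxes that is also active in immune cells, was the member with the smallest adjusted p in each particle comparison without OVA. It read 7.94, 7.77 and 7.77 with saline, 8.71, 8.75 and 8.81 with NDEP, 8.32, 8.46 and 8.42 with ADEP, and 8.60, 8.65 and 8.45 with CDEP. All 9 particle arrays stood above all 3 saline arrays. The log2 fold changes were 0.93 ± 0.11 for NDEP (adjusted p = 4.21e-05, 1.90-fold), 0.57 ± 0.11 for ADEP (adjusted p = 0.0106, 1.48-fold) and 0.74 ± 0.11 for CDEP (adjusted p = 0.00078, 1.67-fold). The rise with ADEP lost its call without ADEP replicate 3 (0.56, adjusted p = 0.0690), and those with NDEP and CDEP kept it whichever array was left out.

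Nr1d1, which encodes REV-ERB alpha, read 6.94, 7.69 and 7.59 with saline and 8.52, 8.61 and 8.14 with NDEP. The groups did not overlap, and the gene rose 2.02-fold (log2 fold change 1.01 ± 0.21, adjusted p = 0.00794). With ADEP it read 7.80, 8.26 and 7.82 and with CDEP 8.10, 7.88 and 8.20, again above all saline arrays, but neither 0.56 ± 0.21 (adjusted p = 0.188) nor 0.66 ± 0.21 (adjusted p = 0.0780) passed. Saline replicate 1 was the lowest of all 24 arrays for this gene. Without it the NDEP value was 0.78 with an adjusted p of 0.0788, and the call was lost. Without saline replicate 2 the CDEP value was 0.80 with an adjusted p of 0.0475, and a call was gained.

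Dbp, a D-box activator whose transcript is among the most strongly cycling in many tissues, had the largest log2 fold change of the 10 genes. Saline lungs read 7.24, 6.32 and 6.96 and NDEP lungs 8.09, 8.70 and 8.37, with no overlap, a 2.92-fold rise (log2 fold change 1.55 ± 0.39, adjusted p = 0.0300). With ADEP the arrays read 6.87, 7.66 and 7.94 and with CDEP 7.12, 7.14 and 7.33, both overlapping saline, and the log2 fold changes were 0.65 ± 0.39 and 0.36 ± 0.39. A second probe set of Dbp gave 1.24 ± 0.33 for NDEP (adjusted p = 0.0436). The rise at the first probe set lost its call without saline replicate 2, saline replicate 3, NDEP replicate 2 or NDEP replicate 3, where it lay between 1.28 and 1.61 with adjusted p between 0.0617 and 0.126. That call was also lost with limma's trended robust variance (adjusted p = 0.0984).

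Nr1d2, which encodes REV-ERB beta, read 9.06, 8.56 and 9.15 with saline and 8.98, 9.78 and 9.65 with NDEP. These overlapped, and 0.55 ± 0.23 did not pass at the probe set used (adjusted p = 0.245). Its second probe set did pass with NDEP, at 0.68 ± 0.17 (adjusted p = 0.0307), so the 2 probe sets of this gene fell on either side of the threshold.

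The Per genes, whose proteins close the negative loop, did not pass in any comparison of a particle with saline. Per1 read 8.27, 8.47 and 8.19 with saline and 7.32, 8.78 and 7.45 with NDEP, where replicate 2 stood above and the other two below every saline array. Its log2 fold change there was -0.46 ± 0.30. With ADEP all Per1 arrays lay below all saline arrays, at a log2 fold change of -0.32 ± 0.30 (limma adjusted p = 0.667). Per2 ranged from 5.92 to 6.09 with saline and from 5.75 to 6.37 over the 9 arrays of particles alone. Per3 ranged from 6.51 to 6.87 with saline and from 6.45 to 7.41 with particles alone. Both overlapped, and no log2 fold change of Per2 or Per3 against saline exceeded 0.24, with SEs of 0.26 and 0.22.

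Markers of neutrophils and monocytes were higher in the same comparisons. Of 4 macrophage markers and of 4 T and B cell markers measured, 0 were called with NDEP, ADEP or CDEP alone. Neutrophil markers rose with the particles alone (4 of 6 measured with NDEP, 3 with ADEP and 4 with CDEP), and their summed intensity went from 522 to 777 in saline lungs to 1555 to 1914 with NDEP, 1082 to 1820 with ADEP and 1382 to 1526 with CDEP. Of 3 monocyte markers measured, 2, 1 and 3 rose, with sums of 318 to 404 in saline and 683 to 1214 with NDEP. No neutrophil or monocyte marker was dim in any group. Heart muscle markers, which come with tissue around the large vessels, summed to 5999 to 11268 in saline and 4375 to 5527 with CDEP, and 1 of 8 was called lower with NDEP and with CDEP. RNA quality moved too: the 3' minus 5' difference of the Gapdh control probe sets averaged 0.36 ± 0.29 (SD, n = 3) in saline, 0.14 ± 0.17 with NDEP, 0.26 ± 0.13 with ADEP and 0.06 ± 0.06 with CDEP. The parts of these cells and of the heart tissue in the clock gene values were not tested. With the RNA quality differences as covariates, Arntl and Bhlhe40 stayed called with NDEP. Clock (-0.45, adjusted p = 0.0521), Nr1d1 (0.85, adjusted p = 0.0785) and Dbp (1.71, adjusted p = 0.0694) lost their calls there at folds close to those without the covariates. With ADEP both calls stayed, Clock at -0.39 (adjusted p = 0.0463) and Bhlhe40 at 0.54 (adjusted p = 0.0179). With CDEP none of the 3 calls stayed, where Bhlhe40 stood at 0.64 (adjusted p = 0.112), Arntl at -0.61 (adjusted p = 0.226) and Clock at -0.41 (adjusted p = 0.226).

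When the particles were given with OVA and compared with OVA alone, Bhlhe40 was the 1 clock gene that changed. It was called with NDEP/OVA, where 2.07% of all genes were, and with CDEP/OVA, where 4.79% were. With ADEP/OVA no clock gene was called by limma, 2 had an unadjusted p under 0.05, and 0.686% of all genes were called, against 1414 genes at that unadjusted p. These 3 comparisons share the OVA arrays. Bhlhe40 read 8.32, 7.98 and 7.98 with OVA, 8.42, 8.45 and 8.77 with NDEP/OVA, 8.33, 8.51 and 8.43 with ADEP/OVA, and 8.73, 8.79 and 8.45 with CDEP/OVA. Each particle group lay above all OVA arrays, by a narrow margin over OVA replicate 1. The log2 fold changes were 0.46 ± 0.11 for NDEP/OVA (adjusted p = 0.0274), 0.33 ± 0.11 for ADEP/OVA (adjusted p = 0.206) and 0.57 ± 0.11 for CDEP/OVA (adjusted p = 0.00295). The NDEP/OVA call was lost without OVA replicate 2 (0.40, adjusted p = 0.184), OVA replicate 3 (0.40, adjusted p = 0.152) or NDEP/OVA replicate 3 (0.35, adjusted p = 0.251), and the CDEP/OVA call held without any 1 array. Macrophage markers were higher there, 3 of 4 with NDEP/OVA and 3 of 4 with CDEP/OVA, with sums of 666 to 767 in OVA and 2117 to 2253 in CDEP/OVA. Heart markers were lower, 3 of 8 and 7 of 8, with sums of 5844 to 6791 in OVA and 2495 to 3658 in CDEP/OVA. Each of the 3 comparisons called 1 of 6 neutrophil markers higher, and that for CDEP/OVA also 1 of 3 monocyte markers. Neutrophil sums ran from 586 to 877 in OVA, 1100 to 1823 in NDEP/OVA, 967 to 1389 in ADEP/OVA and 1191 to 1712 in CDEP/OVA. The part of these cells and of the heart tissue in the values of Bhlhe40 was not tested.

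In the lungs with OVA, Arntl read 6.51, 6.76 and 6.44 with OVA alone and 6.38, 6.30 and 5.73 with NDEP/OVA. The arrays did not overlap, and -0.44 ± 0.14 did not pass (adjusted p = 0.124). ADEP/OVA arrays read 6.39, 6.57 and 6.39 and CDEP/OVA arrays 6.44, 6.44 and 6.29, and their log2 fold changes were -0.13 and -0.18. Clock read 7.58, 7.65 and 7.49 with OVA, already below the saline arrays, and lay between 7.19 and 7.69 over the 9 arrays of particles with OVA. Its log2 fold changes against OVA were -0.11, -0.02 and -0.23 for NDEP, ADEP and CDEP, each with an SE of 0.10, and none passed.

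The REV-ERB genes and Dbp had no call at the probe sets used when particles came with OVA. Nr1d1 read 7.71, 8.27 and 8.09 with OVA and 7.39, 7.46 and 7.69 with CDEP/OVA, which do not overlap, at a log2 fold change of -0.51 ± 0.21 (adjusted p = 0.202). Nr1d2 read 9.14, 9.08 and 9.45 with OVA and 8.65, 8.88 and 8.44 with ADEP/OVA, which also do not overlap, at -0.57 ± 0.23 (adjusted p = 0.328). With CDEP/OVA the probe set used for Nr1d2 gave -0.16 ± 0.23, while its second probe set was called lower at -0.64 ± 0.17 (adjusted p = 0.0321). Dbp was widely spread in these groups. It read 6.09, 7.96 and 8.07 with NDEP/OVA, 5.84, 6.75 and 6.55 with ADEP/OVA, and 6.36, 6.76 and 7.78 with CDEP/OVA, against 6.97, 6.77 and 7.26 with OVA.

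OVA itself left the clock genes without a call. Against saline no clock gene and 0% of all genes were called by limma, while 3 clock genes and 818 genes had an unadjusted p under 0.05. The 3 were Clock at -0.24 ± 0.10, Nr1d1 at 0.62 ± 0.21 and Bhlhe40 at 0.26 ± 0.11, with adjusted p of 0.688, 0.580 and 0.716. Averaged over the 4 backgrounds of saline and the 3 particles, OVA called 2.47% of all genes and no clock gene, and 1 clock gene among 1914 genes had an unadjusted p under 0.05. That gene was Dbp, at -0.55 ± 0.20 (adjusted p = 0.156).

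Averaging the 3 particles with and without OVA used 18 particle arrays against 6 arrays of saline and OVA. Here 10.4% of all genes were called, and 3 of the 10 clock genes: Bhlhe40 rose by 0.60 ± 0.06 (adjusted p = 1.08e-06), Arntl fell by 0.42 ± 0.08 on the log2 scale (adjusted p = 0.00131), and Clock fell by 0.29 ± 0.06 on the log2 scale (adjusted p = 0.00107). These 3 calls were kept without any 1 array. At its second probe set Clock gave -0.13 (adjusted p = 0.364). Nr1d1 and Dbp, called with NDEP alone, averaged 0.21 ± 0.12 and 0.38 ± 0.23 and did not pass.

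Whether OVA altered the response to a particle was tested as an interaction, the fold change with OVA minus that without. No clock gene passed limma's test for NDEP, ADEP or CDEP, where 0.0242%, 0.0242% and 0.371% of all genes were called. At an unadjusted p under 0.05 there were 5, 4 and 1 clock genes among 764, 1292 and 1575 genes. Nr1d1 came nearest. Its interaction was -1.13 ± 0.30 for NDEP (adjusted p = 0.324), -0.92 ± 0.30 for ADEP (adjusted p = 0.314) and -1.16 ± 0.30 for CDEP, with a 95% confidence interval of -1.78 to -0.54 and an adjusted p of 0.0887. All 3 interactions share the saline and OVA arrays, in which Nr1d1 averaged 7.41 ± 0.41 and 8.02 ± 0.28 (SD, n = 3). At its second probe set Nr1d2 passed for CDEP, at -1.08 (adjusted p = 0.0343), while the probe set used gave -0.26 (adjusted p = 0.791). The Nr1d1 interaction for CDEP was called with array weights, at -1.09 (adjusted p = 0.0247), and stood at -0.78 with the RNA quality covariates (adjusted p = 0.687). Whether its response differs with OVA therefore depends on these settings. For the other clock genes at the probe sets used, the calls seen without OVA and missing with it are not shown to differ between those lungs.

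The 3 particles did not differ from each other in any clock gene by limma. Of all genes 0.00807% were called for NDEP against ADEP, 0% for CDEP against ADEP and 0% for CDEP against NDEP. The members with an unadjusted p under 0.05 numbered 3, 0 and 1, among 565, 828 and 734 genes. Dbp had the widest gap, NDEP standing above CDEP by 1.19 with a 95% confidence interval from 0.38 to 1.99 (adjusted p = 0.646), and none of their arrays overlapped. In a fit on these 2 groups alone that gap was called, with an adjusted p of 0.0127. Bhlhe40 was higher by 0.36 ± 0.11 with NDEP than with ADEP (adjusted p = 0.907). With OVA the shares of all genes were 0.0161% for NDEP/OVA against ADEP/OVA, 1.43% for CDEP/OVA against ADEP/OVA and 0.00807% for CDEP/OVA against NDEP/OVA. No clock gene was called there, and 4, 4 and 1 had an unadjusted p under 0.05 among 1338, 2629 and 908 genes. The intervals leave room for differences of this size, so the particles are not shown to act alike.

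By group mean, Arntl was ordered from Saline (6.71) through OVA (6.57), ADEP/OVA (6.45), CDEP/OVA (6.39), ADEP (6.21), CDEP (6.20) and NDEP/OVA (6.14) to NDEP (5.94). With an SD of 0.19 pooled over the groups, neighbours in this order did not differ beyond their spread, except that the last step, from NDEP/OVA to NDEP, was just over that SD. Bhlhe40 was ordered from NDEP (8.76) through CDEP/OVA (8.66), CDEP (8.57), NDEP/OVA (8.55), ADEP/OVA (8.42) and ADEP (8.40) to OVA (8.09) and Saline (7.83). Its pooled SD was 0.14, and 2 steps exceeded it, from ADEP to OVA and from OVA to Saline. Both genes therefore had saline at one end and NDEP at the other, as did Clock (7.81 and 7.31) and Nr1d1 (7.41 and 8.42).

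The balance of both arms was summarised for each array as the mean of the 7 repressor-arm genes minus the mean of the 3 activator-arm genes, in log2 units, where only differences between groups carry meaning. Because the genes were chosen by their arm and with earlier results known, it is given as a description with no test. Saline arrays read 1.04, 0.59 and 1.11, NDEP arrays 1.51, 2.46 and 1.88, ADEP arrays 1.41, 1.58 and 1.68, and CDEP arrays 1.38, 1.55 and 1.64. All 9 particle arrays lay above the 3 saline arrays. With OVA the arrays read 1.20, 1.04 and 1.59 for OVA, 1.13, 1.80 and 2.25 for NDEP/OVA, 0.80, 1.17 and 1.08 for ADEP/OVA, and 1.17, 1.24 and 2.01 for CDEP/OVA. Here every particle group overlapped OVA. The group means were 0.91 ± 0.28 (SD, n = 3) for saline, 1.95 ± 0.48 for NDEP, 1.55 ± 0.14 for ADEP and 1.52 ± 0.13 for CDEP, and 1.27 ± 0.28 for OVA, 1.73 ± 0.56 for NDEP/OVA, 1.02 ± 0.19 for ADEP/OVA and 1.47 ± 0.47 for CDEP/OVA.

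**Figure D3:**
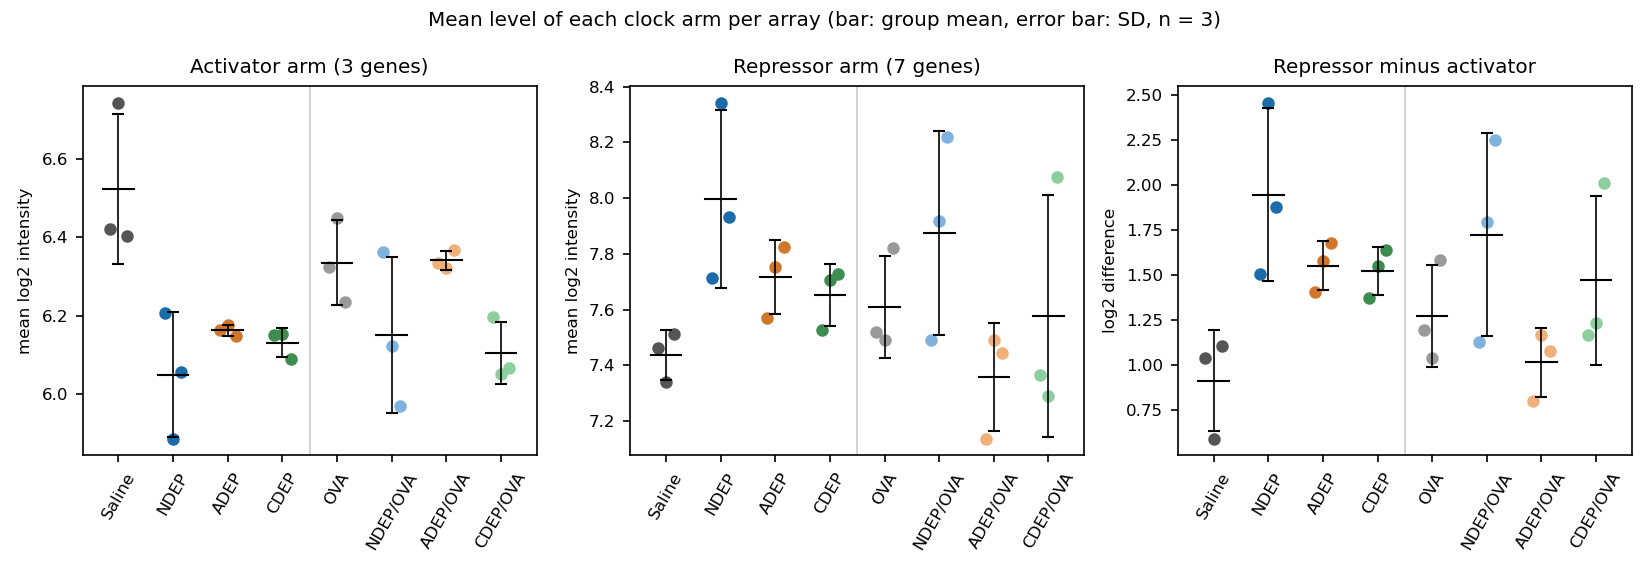
Mean log2 intensity of the 3 activator-arm genes (left), of the 7 repressor-arm genes (middle) and their difference (right) on each of the 24 arrays, with group mean and SD (n = 3). The activator mean of every particle array without OVA lies below the saline arrays, and the difference runs from 0.59 to 1.11 with saline and from 1.38 to 2.46 with particles alone.

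Mice of the same group also differed from each other in their clock genes, and at the probe sets used some of these differences were shared between genes. After each group's mean was removed, all 45 pairs of the 10 genes were correlated over the 24 arrays, with p from 100000 permutations within groups, and adjusted over the 45 pairs. 5 pairs were called positive and 3 negative on Pearson's r. The share of all gene pairs that would be called in this way was not computed, so these counts are not shown to be particular to clock genes. Differences in RNA quality between arrays were not removed from these values. Per2 and Per3 varied together (r = 0.82, Spearman's rho = 0.80, permutation p = 5e-05 and 0.00026, adjusted 0.00225 and 0.00585), and r was 0.77 without the 2 arrays farthest from the median of Per2. Nr1d2 and Dbp did too (r = 0.82, rho = 0.79, permutation p = 0.00063 and 0.00106, adjusted 0.00889 and 0.0109, r = 0.75 without 2 arrays). In CDEP/OVA, replicate 3 stood above its group mean by 0.91 for Per2, 0.59 for Per3, 0.64 for Nr1d2 and 0.81 for Dbp. The pairs were not tested at other probe sets. In CDEP/OVA the Per2 arrays ran from 5.78 to 7.26 at the probe set used and from 5.46 to 5.96 at the second. Nr1d2 ran from 8.64 to 9.70 and from 5.68 to 6.07, and Dbp from 6.36 to 7.78 and from 5.97 to 6.90. Per3 ran from 6.21 to 7.30 and, at a second probe set averaging the 22.6th percentile, from 4.02 to 4.29. The genes did not move together on every array: in NDEP/OVA, replicate 2 stood above its group mean by 0.59 for Dbp and 0.18 for Nr1d2, while Per2 deviated by -0.10 and Per3 by -0.14.

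The other positive pairs joined the same 4 genes. They were Per3 with Nr1d2 (r = 0.79, rho = 0.74, permutation p = 0.0027 and 0.00185, adjusted 0.0174 and 0.0139, r = 0.76 without 2 arrays), Per2 with Dbp (r = 0.65, rho = 0.71, permutation p = 0.00136 and 0.00067, adjusted 0.0122 and 0.0100, r = 0.55 without 2 arrays) and Per3 with Dbp (r = 0.58, rho = 0.69, permutation p = 0.00886 and 0.00253, adjusted 0.0498 and 0.0163, r = 0.62 without 2 arrays). Per3 is the gene whose window above carries both D-boxes, the motif that DBP binds. Whether DBP acts on Per3 was not tested, and Per2 had no window to search. The negative pairs each set an activator-arm gene against a repressor-arm gene. Npas2 ran against Dbp (r = -0.74, rho = -0.78, permutation p = 0.00066 and 0.00016, adjusted 0.00889 and 0.00585, r = -0.72 without 2 arrays). Npas2 also ran against Nr1d2 (r = -0.72, rho = -0.70, permutation p = 0.00231 and 0.00386, adjusted 0.0173 and 0.0193, r = -0.72 without 2 arrays). Arntl ran against Per3 (r = -0.66, rho = -0.71, permutation p = 0.00079 and 0.00121, adjusted 0.00889 and 0.0109, r = -0.60 without 2 arrays). Bhlhe40 had 0 called pairs of 9, with no r beyond 0.45 in size, although it had the smallest adjusted p of the 10 genes between groups.

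**Figure D4:**
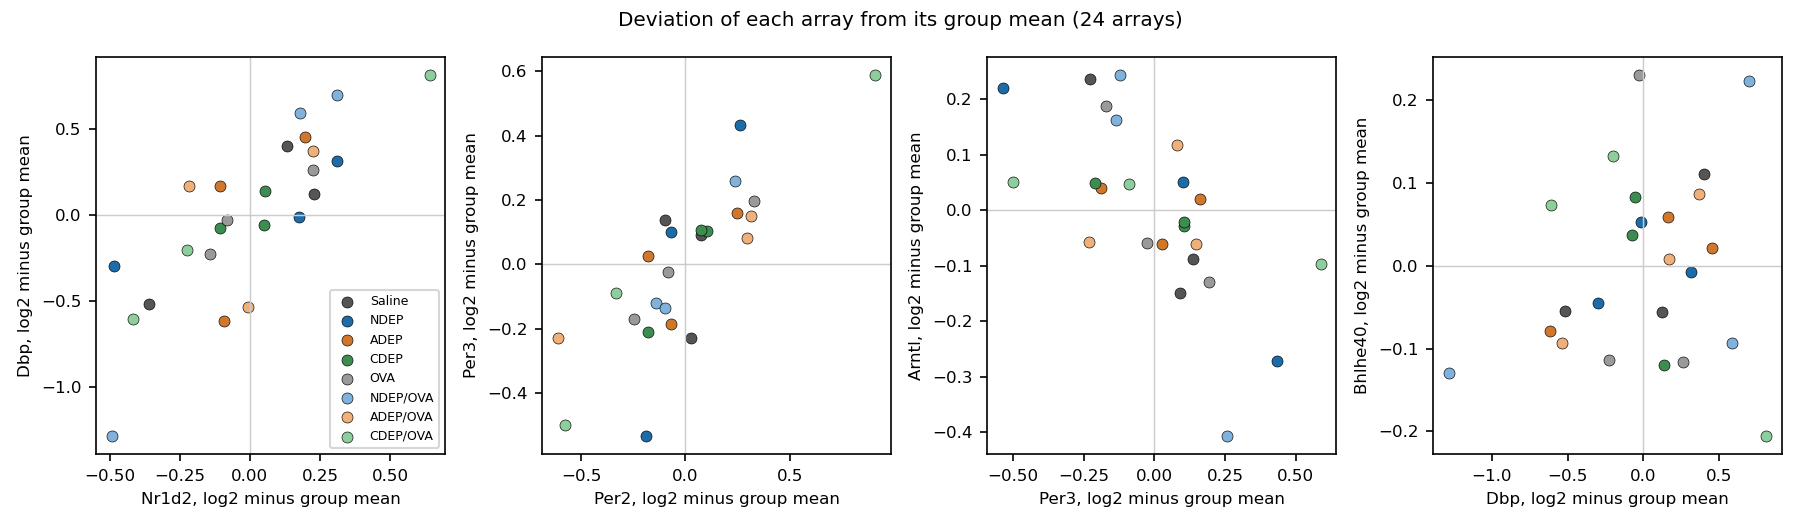
Deviation of each of the 24 arrays from its group mean, in log2 units, for 4 pairs of clock genes at the probe sets used, coloured by group. Nr1d2 with Dbp and Per2 with Per3 rise together (r = 0.82 each), Per3 and Arntl run against each other (r = -0.66), and Dbp with Bhlhe40 shows no called relation.

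The clock holds more genes than these 10. Of 17 further clock genes 13 were measured, and none was called for any particle alone, where the median log2 fold changes were 0.01 for NDEP, 0.01 for ADEP and -0.13 for CDEP, against 0.00, -0.01 and -0.02 over all genes. The repressors Cry1 and Cry2, partners of the PER proteins, gave -0.04 ± 0.11 and 0.01 ± 0.14 with NDEP. Tef, a D-box factor related to Dbp, gave 0.32 ± 0.18 and its relative Hlf 0.09 ± 0.19. Rora, the activator that competes with the REV-ERBs, gave -0.11 ± 0.09. Nfil3, the D-box repressor that opposes DBP, rose with CDEP/OVA against OVA by 0.53 (adjusted p = 0.0410), a call lost without OVA replicate 2 (0.52, adjusted p = 0.138), OVA replicate 3 (0.47, adjusted p = 0.174) or CDEP/OVA replicate 2 (0.39, adjusted p = 0.279). It also rose in the average of the particles with and without OVA, by 0.27 (adjusted p = 0.0497). That call was kept in 8 of 24 fits that each left out 1 array. Nfil3 was dim with NDEP, at a group mean of 4.54, and averaged 4.57 with saline. With OVA averaged over the backgrounds it rose by 0.32 (adjusted p = 0.0177). Csnk1d, a kinase of the PER proteins, fell by 0.30 on the log2 scale in that average (adjusted p = 0.00130).

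Of 11 clock-driven output genes 7 were measured, and 2 rose with NDEP, 0 with ADEP and 1 with CDEP. Wee1, a cell cycle kinase under E-box control, rose by 0.50 ± 0.13 with NDEP (adjusted p = 0.0341), a call kept without saline replicate 1 but lost without each of the other 5 arrays in turn, at 0.44 to 0.53 and adjusted p between 0.0552 and 0.126. Tspan4, a tetraspanin, rose by 0.54 ± 0.13 with NDEP (adjusted p = 0.0213), lost without saline replicate 1 (0.51, adjusted p = 0.0913), saline replicate 3 (0.49, adjusted p = 0.0865) or NDEP replicate 2 (0.40, adjusted p = 0.149). It was also the 1 called with CDEP (0.45 ± 0.13, adjusted p = 0.0496), a call kept without saline replicate 2 but lost without each of the other 5 arrays in turn, at 0.40 to 0.50 and adjusted p between 0.0822 and 0.149. With the RNA quality covariates it stood at 0.20 for CDEP (adjusted p = 0.691) and at 0.40 for NDEP (adjusted p = 0.183). The median of the 7 was -0.01 with NDEP, -0.10 with ADEP and -0.31 with CDEP. Because glucocorticoids act on Per1 and on the lung clock, 10 glucocorticoid-responsive genes were counted, all measured. None was called with NDEP, and Mt2, a metallothionein that metals induce as well, was the 1 called with ADEP (1.20 ± 0.31, adjusted p = 0.0497) and with CDEP (1.34 ± 0.31, adjusted p = 0.0187). Both calls were lost without 1 array, that for ADEP without 5 of its 6 arrays in turn and that for CDEP without saline replicate 1 or CDEP replicate 2 or 3, with adjusted p up to 0.221 and 0.0967. Fkbp5, the usual read-out of the glucocorticoid receptor, gave 0.49 ± 0.28, 0.06 ± 0.28 and 0.35 ± 0.28 and did not pass. When the particles were averaged with and without OVA, Mt2 was called higher at 0.76, and the call was kept without any 1 array. With OVA averaged over the backgrounds, Mt1 was called lower at -0.57, a call lost without ADEP/OVA replicate 2 or CDEP replicate 2.

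The genes most like Arntl and Nr1d1 were sought among 12392 others by Pearson's r over the 24 arrays, as a description in which group differences and array quality are shared. Arntl was most alike to Thra (0.75), Tnfrsf19 (0.73) and its own partner Clock (0.72), and most opposite to C1qa (-0.86), C1qc (-0.82) and Nfkbiz (-0.81). After group means were removed, r with Clock was 0.43 and with C1qa -0.65. Nr1d1 was most alike to S100g (0.79), Met (0.77) and Prss8 (0.74), and most opposite to Arglu1 (-0.74), Ect2 (-0.73) and Fryl (-0.71).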

How the data were processed

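Lung RNA of 24 mice was labelled with biotin from 2 ug of total RNA and read on 1-colour Affymetrix arrays, per the labels' protocols. The authors deposited 1 intensity value per probe set, normalized between arrays by RMA, per the submitters' processing notes. No version is given in the sources used here. RMA values are often on a log2 scale, but these deposited intensities span 5.98 to 18195.5, and the array medians 72.2 to 75.5, which is a linear scale, so log2 was taken. For dim probe sets RMA can understate a difference. Spot background was not analysed here.

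The platform annotation pairs 20380 of 22690 probe sets with a single symbol, 691 with several and 1555 with none, beside 64 controls, and only the first kind was named. Taking the probe set with the highest mean left 12393 genes. limma 3.58.1 in R 4.3.3 fitted 8 group means to all 24 arrays (16 residual and 8.16 prior degrees of freedom, eBayes without trend, two-sided). The Benjamini-Hochberg adjustment ran separately over the genes of each of the 18 comparisons. Arrays showed no copies (highest correlation 0.996, at most 0.0353% identical values).

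The clock genes, the lists and the tests were chosen with earlier results of these data known, and medians and counts of lists are descriptions. The 10 clock genes are always named; of 3 further lists (other clock genes, clock outputs, glucocorticoid-responsive genes) up to 6 with the smallest p in a comparison are named, with Cry1, Cry2, Tef, Hlf, Rora and Fkbp5 named for their role, after their values were seen. The likeness rule takes 3 genes each way for Arntl and Nr1d1. Alternatives were all 20380 probe sets, the second probe set of 6 clock genes, a dim filter (10381 genes left, each exceeding the 25th percentile of 3 or more arrays), a trended robust variance, array weights, a repeat of quantile normalization, only the groups compared, the replicate number as a block, RNA quality covariates, and leaving out each array. The fit was tested on simulated data. Motifs were searched in Python 3.11.15 and plots drawn with matplotlib 3.10.9.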

Additional observations from a re-analysis of the deposited data

How the results depend on the processing

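The number of clock genes called depended on several choices. Of 4428 values recomputed, 4213 were counted as the same, 101 lost the call, 12 gained one, 102 moved and 0 reversed. A change of sign counted as reversed only where a call was involved. The 4213 therefore include uncalled fold changes that changed sign, such as Npas2 with ADEP, from -0.18 to 0.21 at its second probe set. They also include gene counts and means of the arm balance that stayed within a set margin. With the second probe set where there is one, the counts became 1 for ADEP and 2 for CDEP against saline, 2 for the particle average, 2 for CDEP/OVA against OVA and 1 for the CDEP by OVA interaction. With array weights they became 2 for NDEP/OVA against OVA, 1 for ADEP/OVA against OVA and 1 for the CDEP by OVA interaction. With only the groups compared they became 1 for ADEP against saline, 0 for NDEP/OVA against OVA and 1 for CDEP against NDEP. With RNA quality covariates they became 2 for NDEP and 0 for CDEP against saline. Leaving out 1 array gave 4 to 5 for NDEP, 0 to 2 for ADEP and 2 to 3 for CDEP against saline, 0 to 1 for NDEP/OVA and 1 for CDEP/OVA against OVA, and 3 for the particle average; all genes called ranged from 152 to 407, 8 to 274 and 144 to 603 for the particles alone. The cause of these shifts was not tested. Same-numbered arrays did not all deviate together (84 pairs, r from -0.32 to 0.35, 27 over 0.1). Their median r was 0.03, against -0.01 for other pairs, and 10 of 24 arrays were closest to their own number. These values cannot decide whether the numbers mark a pairing or a batch, and the main fit did not use them. With the replicate block the CDEP by OVA interaction had 1 clock gene called, Nr1d1 (adjusted p = 0.0328). Arrays give no count of molecules, and 3 per group limit the precision.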

Other observations

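Some clock outputs not described above for these comparisons were called when the 3 particles were averaged with and without OVA. Of the 7 measured, Tspan4 rose by 0.36 ± 0.08 (limma adjusted p = 0.00259). Klf9, a Krüppel-like factor that glucocorticoids also induce, fell by 0.36 ± 0.09 on the log2 scale (adjusted p = 0.00999), and without OVA replicate 3 it stood at -0.30 (adjusted p = 0.0572). Cirbp, a cold-inducible RNA-binding protein, fell by 0.49 ± 0.12 on the log2 scale (adjusted p = 0.0113), and stood at -0.38 without OVA replicate 1 (adjusted p = 0.0624) and at -0.43 without saline replicate 1 (adjusted p = 0.0516). With CDEP/OVA against OVA, Cirbp fell by 0.85 ± 0.22 on the log2 scale (adjusted p = 0.0212), a call lost without OVA replicate 1 (-0.62), CDEP/OVA replicate 2 (-0.81) or CDEP/OVA replicate 3 (-0.69), with adjusted p up to 0.125. Averaged over the 4 backgrounds, OVA raised Nampt, the enzyme that limits NAD salvage, by 0.31 ± 0.07 (adjusted p = 0.0150).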
